A study of Mus musculus with 40 samples.

Results

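Among libraries that share the label nonescalating, replicate numbers restart partway through at both sampling times, so that each time holds 2 replicate series. Members were chosen by the number and the replicate number in each library's label, which gives 19 of the 40 libraries of the study. The first series comprised 6 libraries at 24 hours (1576 to 1581) and 5 libraries at 1 month (1596 to 1600). The second series comprised 3 libraries at 24 hours (1582 to 1584) and 5 libraries at 1 month (1601 to 1605). Library 1595, the replicate 1 of the first series at 1 month, held 5168 counts on genes and was left out. Libraries are named here by the number in their label.

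All of the libraries came from adult mice of the Drd1-TRAP line CP73, which carry a Drd1-EGFP/Rpl10a transgene and are labelled as FVB/N-Swiss Webster crossed to C57BL/6 for at least 9 generations. The labels place their donors in a nonescalating cocaine group after long-access intravenous self-administration, with sampling 24 hours or about 1 month later. Both series at a time carry the same genotype, strain, tissue, treatment and time labels. The labels give neither the reason for the restart, nor the number of animals behind a library, nor their sex, and the sample index in the label descriptions runs on across the restart. P-values therefore measure only the spread between these libraries, which may be technical. The question asked of the data was which genes differed between series, and whether a difference seen at 24 hours was present again at 1 month in other libraries.

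Translating ribosome affinity purification (TRAP) recovers RNA that is bound to ribosomes in 1 genetically defined cell type. A transgene made under the control of the Drd1 gene adds an EGFP tag to the large-subunit ribosomal protein L10a, and anti-EGFP beads pull the tagged ribosomes out of a tissue extract. In the nucleus accumbens the D1 dopamine receptor marks the medium spiny neurons of the direct pathway, which respond to dopamine through cAMP signalling and release substance P and dynorphin. The purification leaves some unbound RNA in the extract, so that transcripts of other cell types and of nuclear RNA can be present at low levels.

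Total counts on genes (M, 1000000 counts) ranged from 9.11 to 15.1 M in the first series at 24 hours, from 9.62 to 13.2 M in the second, from 10.5 to 15.2 M in the first at 1 month, and from 4.97 to 8.92 M in the second at 1 month. Counts of the 1-month series did not overlap, with means of 12.5 ± 1.78 (SD, n = 5) and 6.93 ± 1.67 M (n = 5; exact two-sided permutation test, p = 0.00794, adjusted p = 0.122 over 18 tests). The share of uniquely placed reads outside annotated features was 21.1% ± 1.48 against 27.3% ± 5.08 at 1 month (exact permutation p = 0.0397, adjusted p = 0.122). The ribosomal RNA precursor Rn45s took 6.41% ± 2.12 of gene counts in the first series against 11.8% ± 4.05 in the second (exact permutation p = 0.0397, adjusted p = 0.122). At 24 hours none of these 3 measures differed beyond the spread between libraries (exact permutation p = 0.917, 0.714 and 0.631). The comparison of series at 1 month is therefore also one of deeper with shallower libraries. With every library thinned to 4.9 M counts, 0 genes were called at 1 month (edgeR) and 664 of 11610 had an unadjusted p under 0.05, against 685 of 12533 at full depth.

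**Figure D1:**
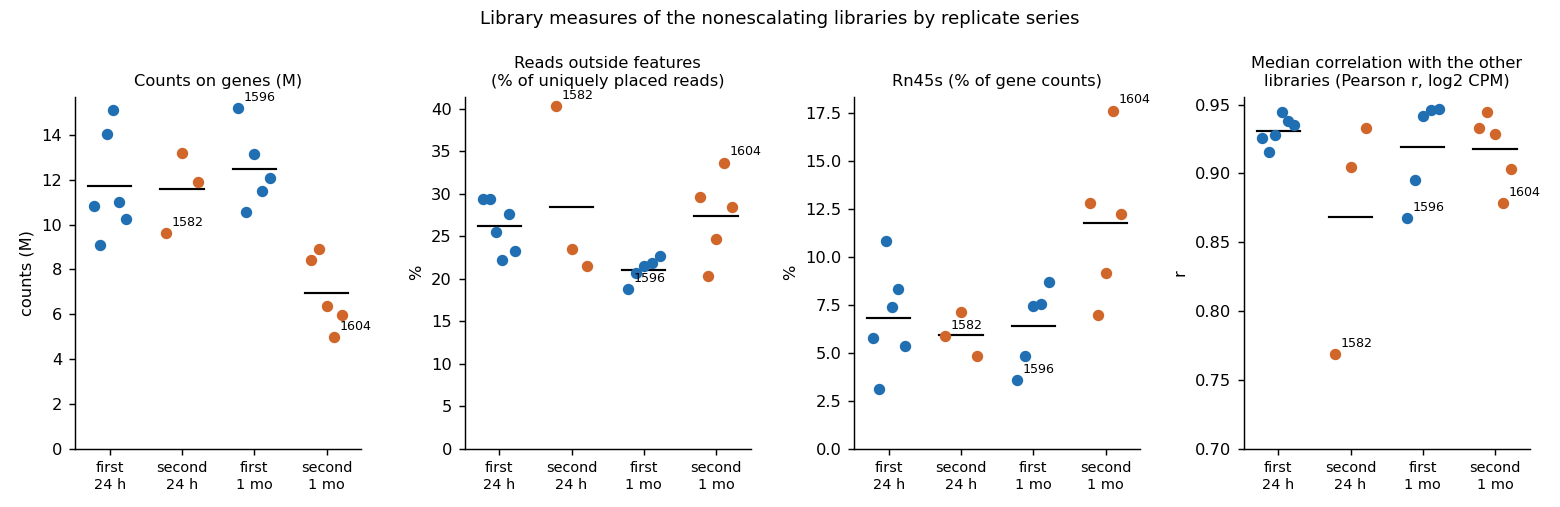
Each point is 1 nonescalating library, by replicate series and time; bars are series means, and panels give counts on genes in M, reads outside features in percent of uniquely placed reads, Rn45s in percent of gene counts, and the median Pearson correlation of log2 CPM with all other libraries above 100000 counts. Library 1582 has the highest share of reads outside features (40.4%) and the lowest correlation (0.769), and library 1604 has the lowest count (4.97 M) and the highest Rn45s share (17.6%).

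Library 1582 stood apart before any gene was compared. It had 40.4% of its reads outside features against 21.5% and 23.5% in the other libraries of its series. It had 10028 genes with 10 or more counts, against 12269 to 13913 in the first series at 24 hours. Its log2 levels correlated with those of the other libraries at a median of 0.769, and the other 18 nonescalating libraries lay between 0.867 and 0.947. Total counts of genes by edgeR's adjusted and unadjusted p at 24 hours are given with and without it. So are the 24-hour log2 differences of genes and lists that moved by over 1.5 times when it was left out. Counts by DESeq2 and limma voom, and 24-hour counts of genes without overlap, are given with it only. Between libraries of different series the median pairwise correlation was 0.886 at 24 hours, which lay between the values within the first (0.916) and the second series (0.783). Without library 1582 it was 0.896 between series against 0.916 within the first. At 1 month pairs from different series correlated (median 0.889) about as well as pairs within the first (0.891) or the second series (0.876).

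Markers of the purified cells were present in every library and as a list did not separate the series. Drd1, the D1 dopamine receptor itself, lay between 357 and 643 CPM (counts per 1000000, scaled by TMM) over all 19 libraries. Its log2 difference, first minus second series, was -0.02 ± 0.17 (SE) at 24 hours (0.03 without library 1582) and 0.04 ± 0.14 at 1 month. Of 9 markers of D1 neurons tested, none was called at either time, and their median log2 difference was -0.03 at 24 hours and 0.04 at 1 month. By edgeR's unadjusted p under 0.05, 1 of the 9 was lower in the first series at 24 hours (Ebf1) and 1 was higher at 1 month (Tac1). Tac1, the substance P precursor, lay between 153 and 316 CPM, and its 1-month log2 difference was 0.48 ± 0.15 (edgeR unadjusted p = 0.00679, adjusted p = 0.846). Xist, which marks female cells, was at most 2.48 CPM, and the Y-linked Ddx3y was at least 21.2 CPM in every library.

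At 24 hours no gene of 13649 differed between the series at an adjusted p under 0.05 (edgeR quasi-likelihood test with Benjamini-Hochberg adjustment), so 0% were called, and the smallest adjusted p was 0.180. By unadjusted p under 0.05, 1732 genes (12.7%) differed, of which 507 (3.71%) were higher and 1225 (8.98%) lower in the first series. DESeq2 called 160 genes, 56 higher and 104 lower in the first series, and limma voom called 0 with 1332 at an unadjusted p under 0.05. Over all genes the median log2 difference was 0.04. Of the 1225 genes lower in the first series, 1119 (91.3%) had their highest level in library 1582, and of the 507 higher ones 358 (70.6%) had their lowest level there. Both sets were chosen by these same values, so that these counts say where the levels lie and test nothing. The same shares over all tested genes were not computed. Without library 1582, edgeR gave 5 called genes and 1134 at an unadjusted p under 0.05. Without library 1583 it called 1 gene, and without library 1584 it called 0 but left 3148 at an unadjusted p under 0.05.

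Arhgef1 had the smallest p at 24 hours. It encodes a guanine nucleotide exchange factor that activates the small GTPase RhoA, and lies on chromosome 7 (chr7:24902912-24926594, GRCm38). Its level in the first series ranged from 13.4 to 23.3 CPM with a median of 18.5, and in the second series it was 151, 41.1 and 93.7 CPM in libraries 1582, 1583 and 1584. The groups did not overlap, and the log2 difference was -2.36 ± 0.36 (edgeR adjusted p = 0.180), or -1.87 without library 1582 (adjusted p = 0.0558). At 1 month Arhgef1 was at 11.2 to 22.2 CPM in the first series and at 14.01 to 20.7 CPM in the second, a log2 difference of 0.12 ± 0.32. The high levels were thus those of the 3 second-series libraries at 24 hours, and no 1-month library of either series exceeded the first series.

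Zfhx4, a zinc finger homeobox transcription factor, was at a similar level in all 3 second-series libraries. They held 168, 148 and 152 CPM, and the 6 first-series libraries 55.4 to 73.5 CPM with a median of 66.8. The log2 difference was -1.24 ± 0.20 (edgeR adjusted p = 0.180) with library 1582 and -1.20 without it (adjusted p = 0.0430). At 1 month both series were spread over the same range, 58.7 to 95.7 CPM in the first and 49.9 to 99.3 CPM in the second.

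Other genes with small p at 24 hours leaned on library 1582 to different degrees. Qser1, which encodes a protein that guards DNA against methylation in human cells, was at 337 CPM in library 1582, 67.0 and 45.6 CPM in libraries 1583 and 1584, and 25.5 to 33.4 CPM in the first series. Its log2 difference of -2.32 ± 0.47 became -0.92 without library 1582. Cic, a transcriptional repressor downstream of receptor tyrosine kinases, was at 767, 408 and 352 CPM in the second series and at 210 to 291 CPM in the first (log2 difference -1.11 ± 0.23, edgeR adjusted p = 0.256, and -0.70 without library 1582). At 1 month Cic lay in the other direction, at 243 to 409 CPM in the first series against 207 to 331 CPM in the second, with overlap. Aldh1a3, a retinaldehyde dehydrogenase that makes retinoic acid, was at 7.27, 19.6 and 1.97 CPM in the second series and at no more than 0.183 CPM in the first, and was among the genes called without library 1582 (edgeR adjusted p = 0.0430). At 1 month it was at most 0.565 CPM in the first series and at most 3.42 CPM in the second.

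At 1 month no gene of 12533 was called (0%; edgeR quasi-likelihood test with Benjamini-Hochberg adjustment, smallest adjusted p = 0.846). DESeq2 and limma voom also called 0, with 850 and 390 genes at an unadjusted p under 0.05. By edgeR, 685 genes (5.47%) had an unadjusted p under 0.05, 413 (3.3%) higher and 272 (2.17%) lower in the first series. That share is close to the 0.05 that the threshold passes where nothing differs. The genes described below for 1 month are therefore not established differences. Of the 413, 271 had their highest level in library 1596 and 137 in library 1597, together 98.8%. Of the 272, 216 (79.4%) had their highest level in library 1604 or 1605, the 2 shallowest of the nonescalating libraries compared at that time. Both sets were chosen by these same values, so that the counts say where the levels lie and test nothing. Shares over all genes tested at 1 month were not computed.

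The smallest p at 1 month belonged to AK144265, a transcript listed only by its sequence record. It was at 46.4, 73.2, 165, 128 and 103 CPM in libraries 1596 to 1600 and at 310, 147, 257, 436 and 218 CPM in libraries 1601 to 1605. Only library 1602 of the second series lay within the range of the first (log2 difference -1.42 ± 0.33, edgeR adjusted p = 0.846). At 24 hours the series overlapped, with 45.9 to 220.1 CPM against 144, 101 and 63.1 CPM.

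Chst2 had the next smallest p at 1 month. It encodes a sulfotransferase that adds sulfate to N-acetylglucosamine in glycans. Libraries 1596 to 1600 held 504, 378, 305, 251 and 369 CPM, and libraries 1601 to 1605 held 180, 242, 151, 158 and 278 CPM. All but library 1599 of the first series lay above every library of the second (log2 difference 0.82 ± 0.21, edgeR adjusted p = 0.846). At 24 hours the series overlapped, with 208 to 509 CPM against 194 to 362 CPM.

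Me2, a mitochondrial malic enzyme, had its highest levels in libraries 1596 and 1597. They held 177 and 86.1 CPM, the other 3 libraries of the first series 25.9 to 36.1 CPM and the second series 18.05 to 27.2 CPM. Its log2 difference of 1.74 ± 0.45 became 0.58 without libraries 1596 and 1597. Nek7, a mitotic kinase that also takes part in inflammasome assembly, was lower in the first series. It was at 16.7, 10.9, 20.6, 16.8 and 13.5 CPM in libraries 1596 to 1600 and at 30.7, 27.0, 25.1, 74.7 and 38.4 CPM in libraries 1601 to 1605, with no overlap and the highest value in library 1604. The immediate early gene Egr2, a zinc finger transcription factor induced by neuronal activity, was at 12.1 to 44.1 CPM in the first series and at 2.84 to 10.6 CPM in the second, again with no overlap (log2 difference 1.77 ± 0.47, edgeR adjusted p = 0.846). At 24 hours its levels overlapped, with 6.90 to 30.6 CPM in the first series and 0, 3.53 and 13.6 CPM in the second.

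**Figure D2:**
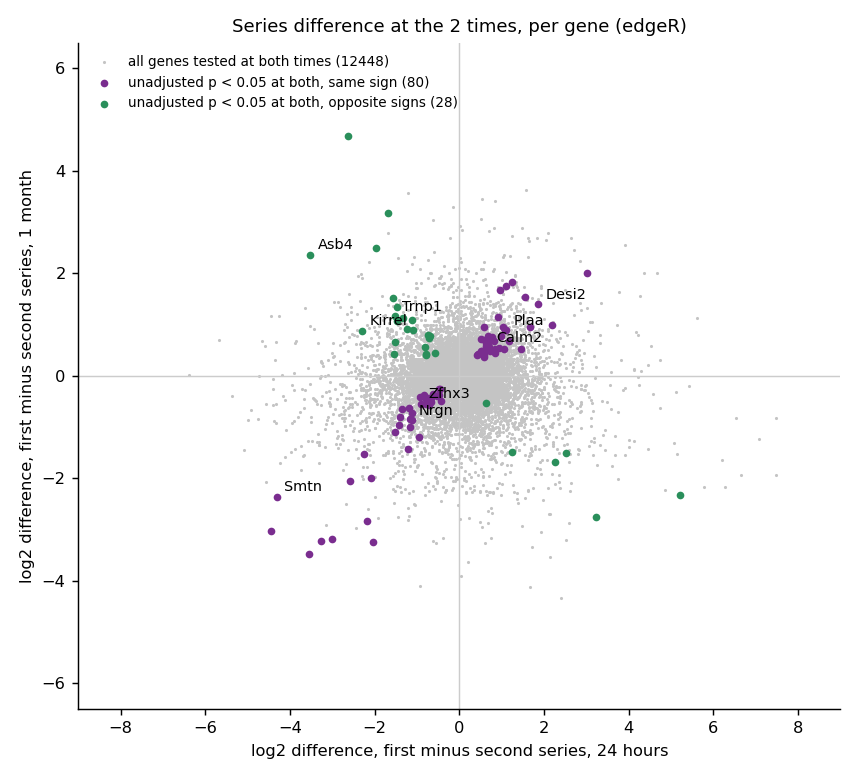
Each point is 1 gene tested at both times, with its log2 difference (first minus second series) at 24 hours on the x axis and at 1 month on the y axis. Coloured points have an unadjusted p under 0.05 at both times, with the same sign (purple, 80 genes) or opposite signs (green, 28 genes). The 80 purple genes divide into 41 higher and 39 lower in the first series, and across all 12448 genes the differences are nearly unrelated (Pearson r = 0.056).

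The comparisons at 24 hours and at 1 month share no library, so a difference that appears in both was measured in separate libraries. No gene was called at both times by edgeR, DESeq2 or limma voom or under any alternative tried. Of 12448 genes tested at both times, 54% had the same sign, and Pearson's r of the differences across genes was 0.056 and Spearman's rho 0.088 (genes are not independent replicates). Taking the unadjusted p at each time, 80 genes (0.643%) differed in the same direction, 41 higher and 39 lower in the first series, and 28 genes (0.225%) differed in opposite directions. In a single fit of all 19 libraries, the mean series difference over both times gave 0 called genes of 14719 (edgeR, smallest adjusted p = 0.0758) and 1850 (12.6%) at an unadjusted p under 0.05, 796 (5.41%) higher and 1054 (7.16%) lower in the first series. DESeq2 called 135 genes in that comparison, and limma voom called 0 with 1442 at an unadjusted p under 0.05. Without library 1583 edgeR called 91 genes in the mean difference, and without library 1584 it called 223.

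The smallest adjusted p of 0.0758 belonged to AK042619, a transcript listed only by its sequence record. It was at 164 CPM in library 1582 and at no more than 2.05 CPM in the other 18 libraries. Figf, the growth factor also called Vegfd, had the next smallest and was likewise at 163 CPM in library 1582 and at most 4.60 CPM elsewhere. Without library 1582 the mean log2 difference of AK042619 went from -6.06 to -2.94 (edgeR adjusted p = 0.544) and that of Figf from -5.03 to -2.97 (adjusted p = 0.495). At 1 month neither gene exceeded 2.84 CPM in any library of either series.

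Nrgn, which encodes neurogranin, a postsynaptic protein that binds calmodulin, was lower in the first series at both times and is not set by library 1582. It lies on chromosome 9 (chr9:37544492-37552904). At 24 hours the first series ranged from 60.04 to 101 CPM with a median of 75.5, and libraries 1582, 1583 and 1584 held 43.8, 289 and 187 CPM. Library 1582 was thus the lowest of all 9 libraries and the other libraries of its series were the highest. At 1 month libraries 1596 to 1600 held 90.6, 84.4, 87.4, 81.7 and 74.9 CPM, and libraries 1601 to 1605 held 221, 83.7, 128, 179 and 146 CPM. The first series was tight, and 4 of the 5 second-series libraries lay above all of it. The mean log2 difference over both times was -0.99 ± 0.23 (edgeR adjusted p = 0.161). Without library 1582 it was -1.22, and Nrgn was then the only gene called in the mean difference (edgeR adjusted p = 0.000854). It was also called at 24 hours without that library (adjusted p = 0.00879), and stayed uncalled at 1 month (adjusted p = 0.846). Nrgn is a marker of forebrain neurons, and its levels in saline libraries were 107 ± 49.7 CPM (SD, n = 6) at 24 hours and 108 ± 36.3 CPM (n = 5) at 1 month, between those of the series.

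Calm2, on chromosome 17 (chr17:87433412-87446935), encodes calmodulin, the calcium sensor to which neurogranin binds, and was higher in the first series. At 24 hours the first series held 2524 to 5529 CPM with a median of 3069, and the second 1766, 2662 and 2255 CPM. At 1 month libraries 1596 to 1600 held 5464, 4970, 3380, 2981 and 3958 CPM, and libraries 1601 to 1605 held 3136, 3000, 3337, 2321 and 2237 CPM. The series overlapped at both times, and the 4 highest libraries were 1576 and 1577 at 24 hours and 1596 and 1597 at 1 month. The mean log2 difference was 0.64 ± 0.15 (edgeR adjusted p = 0.161), and 0.34 without those 4 libraries. How the counting handled reads shared with the other calmodulin genes is not given in the sources used here.

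Plaa, which encodes an activator of phospholipase A2 that also works in ubiquitin-dependent protein turnover, had no overlap at 24 hours. The first series held 57.0 to 83.0 CPM with a median of 74.1, and the second 25.8, 27.2 and 46.8 CPM. At 1 month the series overlapped, at 163, 86.6, 53.4, 61.8 and 55.3 CPM in libraries 1596 to 1600 and 42.1, 51.0, 32.6, 68.1 and 29.9 CPM in libraries 1601 to 1605. Its mean log2 difference was 1.00 ± 0.23 (edgeR adjusted p = 0.161) and was 0.92 without library 1582.

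Chgb, the secretory granule protein chromogranin B, and Desi2, a peptidase of the deSUMOylating type, were higher in the first series with the same libraries on top. Chgb held 540 and 423 CPM in libraries 1576 and 1577 and 276 to 330 CPM in the other 4 libraries of the first series, against 201, 245 and 278 CPM in the second. At 1 month it held 779 and 665 CPM in libraries 1596 and 1597 and 284 to 359 CPM in the other 3, against 179 to 293 CPM in the second. In each first-series group this pair of libraries stood clear of the rest. Desi2 held 72.5 and 66.5 CPM in libraries 1576 and 1577, 110 and 73.2 CPM in libraries 1596 and 1597, and 21.6 to 46.0 CPM in the rest of the first series, against 2.93 to 25.01 CPM in the second. Without those 4 libraries the mean log2 difference of Chgb went from 0.77 to 0.36 and that of Desi2 from 1.63 to 0.94. Atp1b1, the beta subunit of the sodium pump, showed the same 4 libraries on top, at 1884, 2138, 2327 and 1961 CPM against 1099 to 1268 CPM in the rest of the first series and 708 to 1180 CPM in the second. It was chosen for mention after its values were seen.

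Other repeated genes that were higher in the first series included Cct7, a subunit of the cytosolic chaperonin (mean log2 difference 0.67 ± 0.16), and Hnrnpa2b1, an RNA-binding protein of splicing and RNA transport (0.50 ± 0.15). Neither was called. DQ539915, a transcript listed only by its sequence record, also repeated. Its log2 difference was 1.11 ± 0.29 at 24 hours and 1.75 ± 0.45 at 1 month (edgeR unadjusted p = 0.00186 and 0.00196, adjusted p = 0.256 and 0.846). The mean difference of DQ539915 was 1.45 ± 0.33 (edgeR adjusted p = 0.161). It was called at 24 hours without library 1582 and with the share of reads outside features as a covariate.

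Genes lower in the first series at both times included Zfhx3, a homeobox transcription factor related to Zfhx4. At 24 hours Zfhx3 held 102 to 149 CPM in the first series, with a median of 130, and 289, 189 and 231 CPM in the second, with no overlap. At 1 month libraries 1596 to 1600 held 86.6, 175, 128, 106 and 91.8 CPM and libraries 1601 to 1605 held 171, 106, 147, 214 and 212 CPM, and the series overlapped. The mean log2 difference was -0.71 ± 0.16 (edgeR adjusted p = 0.161). Rab3a, a GTPase of synaptic vesicles, and Gnb1, a G protein beta subunit, had their highest levels in library 1582 (749 and 1696 CPM) and in library 1604 (589 and 1127 CPM). Without libraries 1582, 1604 and 1605 the mean log2 difference of Rab3a went from -0.65 to -0.34 and that of Gnb1 from -0.47 to -0.21. Smtn, a smooth muscle protein, went from -3.31 to -0.74 under the same omission, having stood at 197 CPM in library 1582, 28.8 CPM in library 1604 and 19.8 CPM in library 1605, against at most 9.34 CPM in the other 16 libraries.

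**Figure D3:**
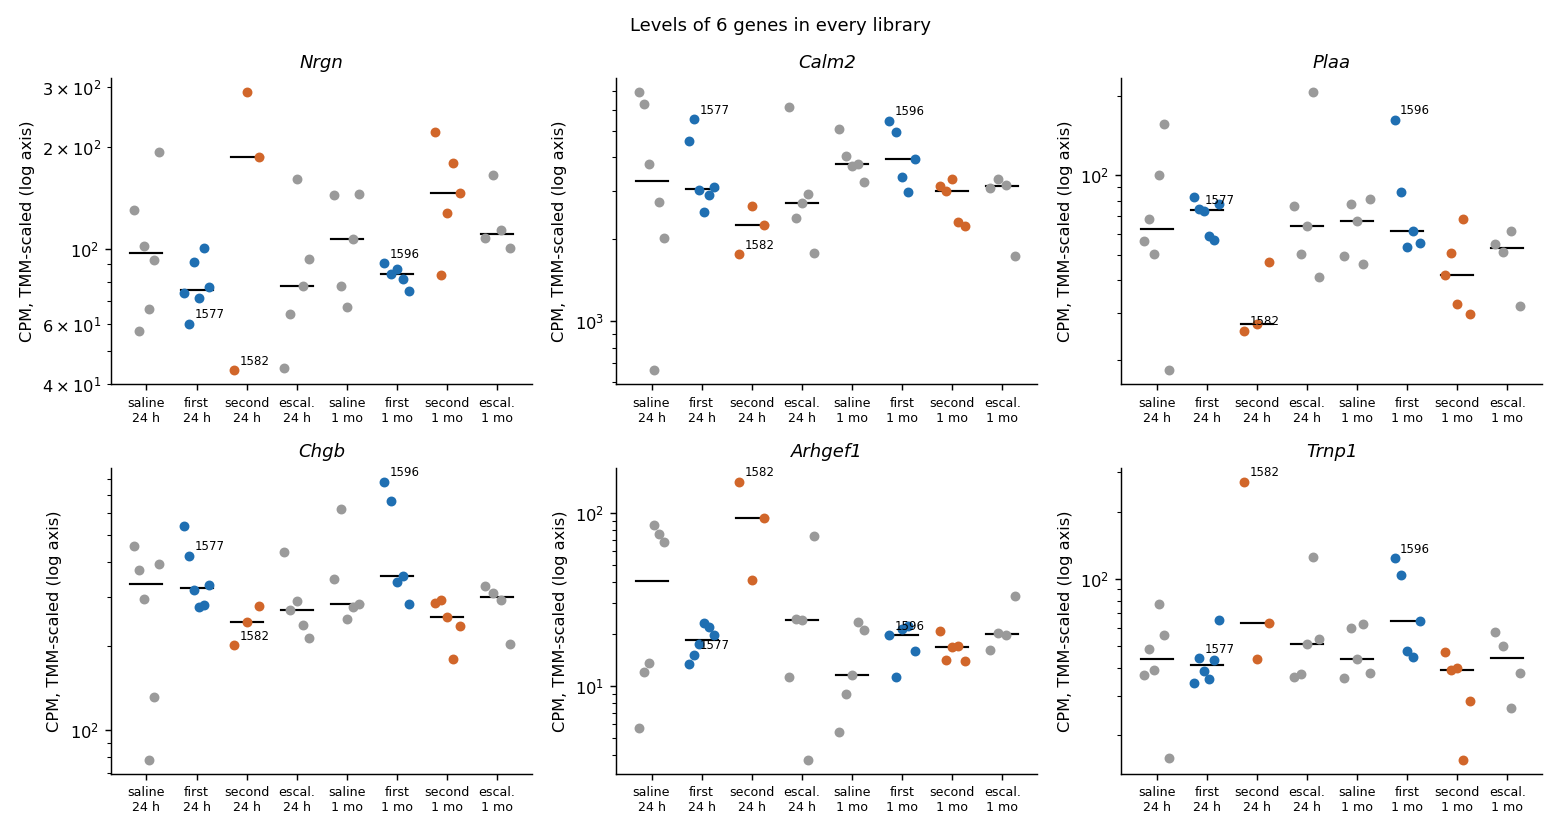
Each point is the level of 1 gene in 1 library (CPM scaled by TMM, log axis), for the 2 nonescalating series (blue first, orange second) and for the saline and escalating groups (grey) at each time; bars are group medians. Nrgn separates the series at both times apart from libraries 1582 and 1602, and Calm2 and Chgb are topped by a few first-series libraries. Plaa and Arhgef1 separate the series at 24 hours and overlap at 1 month. Trnp1 at 24 hours is set apart by library 1582 alone.

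The highest levels of the repeated genes lay in a few libraries. Of the 41 genes higher in the first series, 37 (90.2%) had their highest 24-hour level in library 1576 or 1577, and all 41 had their highest 1-month level in library 1596 or 1597. Of the 39 lower in the first series, 35 had their highest 24-hour level in library 1582, and 35 had their highest 1-month level in library 1604 or 1605. Genes with an unadjusted p under 0.05 at a single time, repeated or not, also had high shares. They were 98.8% in library 1596 or 1597, 91.3% in library 1582 and 79.4% in library 1604 or 1605. Such shares are thus not particular to the repeated genes, and those over all tested genes were not computed. With libraries 1576, 1577, 1596 and 1597 left out, 27 genes repeated, 3 higher and 24 lower in the first series, and 12 of them were among the 80. With libraries 1582, 1604 and 1605 left out, 20 repeated, 13 higher and 7 lower, and 10 were among the 80. The genes and the libraries left out were both chosen by these same levels, and the groups are smaller without them, so that a lower count was largely fixed by the choice and tests nothing. Leaving out 1 library at a time gave 37 (without library 1604) to 104 (without library 1584), and 57 without library 1582. With the share of reads outside features as a covariate, 4 genes repeated. What these libraries have in common was not tested.

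**Figure D4:**
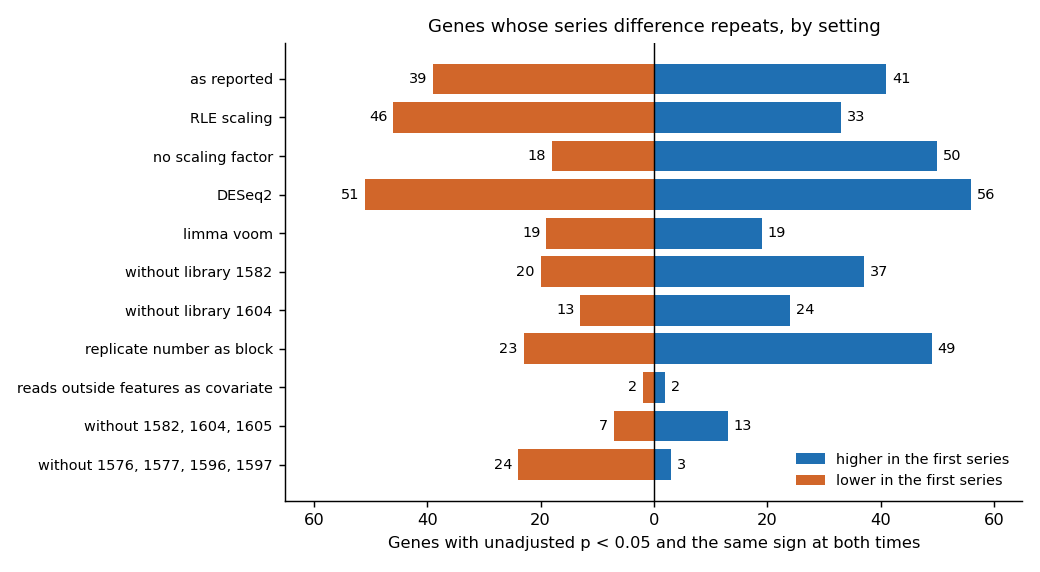
Bars count genes with an unadjusted p under 0.05 and the same sign at both times, to the right where the first series was higher and to the left where it was lower, under the reported setting and 10 others. The count of 41 higher genes becomes 3 without libraries 1576, 1577, 1596 and 1597, and the count of 39 lower genes becomes 7 without libraries 1582, 1604 and 1605.

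A stricter reading asks for groups that do not overlap. At 24 hours the series did not overlap for 621 of the 12448 genes (4.99%), 388 (3.12%) higher in the first and 233 (1.87%) in the second. At 1 month they did not overlap for 121 (0.972%). A single gene, Cwc27, did so at both times in the same direction (0.00803%), and 5 did so in opposite directions (0.0402%). Cwc27 encodes a spliceosome-associated protein of the cyclophilin family and was named because it was that gene. At 24 hours it held 15.9 to 27.1 CPM in the first series, with a median of 19.9, and 1.53, 5.52 and 12.1 CPM in the second. At 1 month libraries 1596 to 1600 held 15.03, 25.96, 19.7, 15.7 and 17.4 CPM, and libraries 1601 to 1605 held 14.02, 12.99, 12.8, 8.73 and 10.4 CPM. The gap at 1 month was narrow, and the mean log2 difference was 1.18 ± 0.34 (edgeR adjusted p = 0.184). Without library 1582, Cwc27 remained and Ppp1r37, which was higher in the second series, joined it (2 genes, 0.0161%), while 7 genes had opposite directions (0.0562%). Whether any of these counts exceeds what libraries without a series difference would give was not tested. Cwc27 is therefore described here and not counted as a repeated difference.

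The 5 genes with opposite directions were Car2, Fuca1, Mast1, Rad1 and Susd1. Car2, the cytosolic carbonic anhydrase, held 24.7 to 34.2 CPM in the first series and 21.05, 21.8 and 23.6 CPM in the second at 24 hours. Levels of 17.8 to 22.3 CPM were found at 1 month in the first series and 23.1 to 26.3 CPM in the second. Its log2 difference was 0.38 ± 0.33 at 24 hours and -0.33 ± 0.26 at 1 month, neither of which passed an unadjusted p under 0.05.

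The change of the series difference between times, tested as an interaction, gave 0 called genes of 14719 (edgeR, smallest adjusted p = 0.218) with 1341 (9.11%) at an unadjusted p under 0.05. DESeq2 called 21 genes, and limma voom 0 with 1172 at an unadjusted p under 0.05. Besides Arhgef1 and Cic, the smallest p-values belonged to Kirrel, Asb4 and Trnp1, which were lower in the first series at 24 hours and higher in it at 1 month. Kirrel, an adhesion protein of the immunoglobulin superfamily, held 11.1 to 21.8 CPM against 153, 29.4 and 33.9 CPM at 24 hours. It held 13.2 to 37.6 CPM at 1 month against 6.45 to 17.03 CPM, and its log2 differences were -2.30 ± 0.48 (-1.12 without library 1582) and 0.88 ± 0.39. Kirrel thus separated the series at 24 hours and overlapped at 1 month. Trnp1, a nuclear protein of cortical development, was at 272 CPM in library 1582 and at 34.1 to 65.7 CPM in the other 8 libraries at 24 hours, and at 123 and 104 CPM in libraries 1596 and 1597 at 1 month against 15.5 to 65.1 CPM in the other 8. Asb4, a substrate receptor of ubiquitin ligases, had 127 CPM in library 1582 and at most 8.97 CPM in the other 8, and 25.01 and 22.7 CPM in libraries 1596 and 1597 against at most 4.37 CPM in the rest. Without library 1582 the 24-hour log2 difference of Trnp1 went from -1.53 to -0.30 and that of Asb4 from -3.52 to -0.44.

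Gene groups were compared by counts and medians, without a test. Most heat shock and chaperone genes had higher levels in the first series at both times, with 10 of 13 members positive at 24 hours (median log2 difference 0.59) and 10 of 11 at 1 month (0.23), against 52.5% and 48.5% of all genes. Hsp90aa1, the inducible HSP90, held 642 to 1065 CPM against 230, 615 and 438 CPM at 24 hours, with no overlap (log2 difference 0.91 ± 0.29, and 0.60 without library 1582). At 1 month it held 744 to 1079 CPM in the first series and 412 to 847 CPM in the second, where libraries 1604 and 1605 were the lowest. Dnaja1, its HSP40 partner, held 182 to 260 CPM against 104, 147 and 142 CPM at 24 hours, and 191 to 283 CPM against 105 to 233 CPM at 1 month. It separated the series at 24 hours and not at 1 month. Hspd1, the mitochondrial chaperonin, held 199 to 336 CPM against 79.0, 194 and 120 CPM at 24 hours. No member was called. The 24-hour median was 0.36 without library 1582, and the 1-month median was 0.09 without libraries 1576, 1577, 1596 and 1597 and 0.03 with the share of reads outside features as a covariate.

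Most markers shared by all medium spiny neurons had lower levels in the first series, by small amounts. At 24 hours 14 of 16 members were negative (median -0.26) and at 1 month 13 of 16 (median -0.10). Ppp1r1b, the dopamine- and cAMP-regulated phosphoprotein DARPP-32, held 754 to 1646 CPM in the first series, with a median of 1502, and 1968, 1589 and 1796 CPM in the second at 24 hours. Its 1-month levels were 1065 to 1759 CPM against 1496 to 1904 CPM, and its lowest levels were again in libraries 1576, 1577, 1596 and 1597. Bcl11b, a transcription factor of medium spiny neuron development, was the single member of the list among the 80 repeated genes (mean log2 difference -0.35 ± 0.12, edgeR adjusted p = 0.216). Without libraries 1576, 1577, 1596 and 1597 the list medians were -0.20 and -0.04.

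Synaptic and excitability lists had medians of either sign, and those at 24 hours lay closer to 0 without library 1582. Voltage-gated channels had a median of -0.12 at 24 hours (-0.03 without library 1582) and -0.03 at 1 month, and Cacna1e, the R-type calcium channel, was the 1 member of 54 that repeated (mean log2 difference -0.36 ± 0.09, edgeR adjusted p = 0.161). It held 769 to 1099 CPM against 1557, 1209 and 1249 CPM at 24 hours, with no overlap, and 840 to 948 CPM against 876 to 1222 CPM at 1 month. Glutamate receptors and scaffold proteins had medians of -0.21 (-0.08 without library 1582) and -0.01. Neuropeptide genes had medians of 0.24 and 0.18, with Chgb as the member that repeated, and the 24-hour median was -0.05 without library 1582. Penk, the enkephalin precursor, and Tac1 had similar 1-month differences (log2 0.53 ± 0.15 and 0.48 ± 0.15, edgeR adjusted p = 0.846 for each). Immediate early genes had medians of 0.23 (0.01 without library 1582) and 0.27.

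Genes of energy metabolism leaned to the first series at 1 month. Of 74 nuclear genes of oxidative phosphorylation, 38 were positive at 24 hours (median 0.02, and -0.08 without library 1582) and 63 at 1 month (median 0.29). The 1-month median was 0.13 without libraries 1576, 1577, 1596 and 1597 and 0.17 with the share of reads outside features as a covariate. Atp5g3, a subunit of the ATP synthase membrane rotor, held 101 to 141 CPM in the first series and 54.9 to 96.5 CPM in the second at 1 month, without overlap (log2 difference 0.62 ± 0.18, edgeR adjusted p = 0.846). Atp5c1, the central shaft subunit, held 168 to 227 CPM against 99.8 to 181 CPM. At 24 hours both genes overlapped between series, with the first-series maximum in library 1576. Cytosolic ribosomal protein genes had 37 of 80 members positive at 24 hours (median -0.06) and 59 of 80 at 1 month (median 0.17). Their 1-month median was 0.09 without the same 4 libraries and 0.06 with the covariate. Library 1597 had the highest mean level of both lists in the first series at 1 month.

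Markers of other cell types varied widely within each series. In bulk RNA, fewer cells of a type and less RNA per cell cannot be told apart. Glutamatergic projection neuron markers had a median of 1.74 at 24 hours with 6 of 9 positive (2.73 without library 1582), and -0.82 at 1 month with 1 of 7 positive. The mean log2 CPM of that list spread from -0.25 to 4.07 within the first series at 24 hours and from 0.44 to 1.97 within the second, and at 1 month from 0.51 to 2.91 and from -0.29 to 3.59. Neurod6, a transcription factor of cortical pyramidal neurons, was at 15.9, 0, 8.02, 0, 4.69 and 14.9 CPM in libraries 1576 to 1581 and at 0.255, 0 and 0 CPM in the second series. Rorb, a nuclear receptor of layer 4 cortical neurons, was at 7.63 to 21.96 CPM and at 3.07 to 6.25 CPM, with no overlap. Both genes were at 24 hours higher in some or all first-series libraries than in any of the second, while 3 of the 9 members went the other way. By edgeR's unadjusted p under 0.05, 4 members were higher and 1 was lower in the first series at 24 hours. At 1 month 6 of the 7 tested members were lower in the first series, and 0 passed that threshold in either direction. Interferon and antigen presentation genes had medians of -0.86 (5 of 18 positive) and -0.74 (2 of 14 positive), which were -1.14 without library 1582 and -0.32 without libraries 1604 and 1605. Levels of that list were low, with a mean log2 CPM of 0.39 ± 0.76 (SD) in the first series and 0.80 ± 1.06 in the second at 24 hours. The gap was smaller than either SD. Saline (1.49 ± 1.23) and escalating libraries (2.15 ± 1.59) lay above both series at that time. At 1 month the series held 0.29 ± 0.81 and 1.26 ± 0.49. B2m, the light chain of class I antigens, held 3.79 to 18.9 CPM against 58.6, 26.9 and 26.3 CPM at 24 hours, with no overlap, and overlapped at 1 month. The vascular list had a median of -0.01 at 24 hours (-0.07 without library 1582) and -0.67 at 1 month (0.18 without libraries 1604 and 1605). Oligodendrocyte markers had medians of -0.64 (-0.03 without library 1582) and 0.19, and microglial markers had list levels of at most 1.28 log2 CPM. The part of these cell types in the differences above was not tested.

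**Figure D5:**
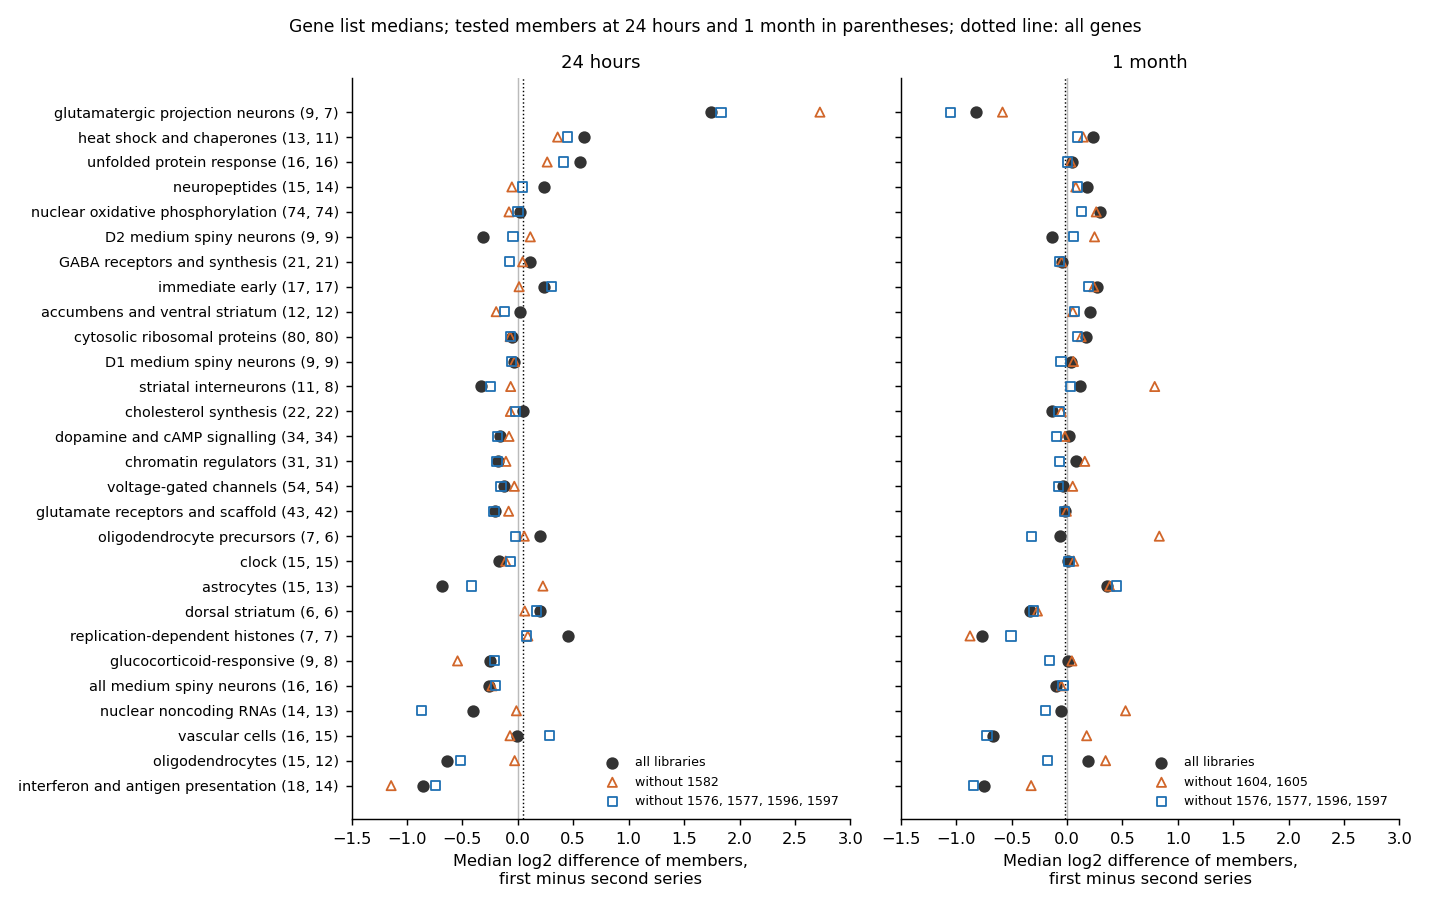
Each symbol is the median log2 difference (first minus second series) of the tested members of 1 gene list at 24 hours (left) and 1 month (right), for all libraries and with 2 sets of libraries left out; the dotted line is the median of all genes tested. Heat shock genes lie above it and interferon genes below it at both times, and the glutamatergic list moves from 1.74 at 24 hours to -0.82 at 1 month.

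Base composition of the repeated genes was described from GENCODE transcripts. Those higher in the first series had a median GC content of 44.0% and those lower 50.8%, against 49.4% for all genes tested at both times (37 of 41, 37 of 39 and 93.3% of the genes had a transcript). Over all genes the median log2 difference went from 0.17 in the quartile of lowest GC content to -0.08 in the highest at 24 hours, and from 0.05 to -0.08 at 1 month. Longer genes also tended lower in the first series at 1 month (0.04 in the shortest quartile, -0.04 in the longest). Whether GC content accounts for any of the 80 genes was not tested.

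Saline and escalating libraries give the range of the same genes outside both series. Plaa was at 75.0 ± 47.8 CPM (SD, n = 6) in saline and 87.8 ± 67.6 CPM (n = 5) in escalating libraries at 24 hours, and at 64.4 ± 16.03 (n = 5) and 49.9 ± 12.7 CPM (n = 4) at 1 month. The SD of each 24-hour group was larger than the gap between the series means of Plaa at that time (70.9 and 33.3 CPM). Calm2 was at 3744 ± 2459 and 3199 ± 1699 CPM at 24 hours and at 3981 ± 685 and 2833 ± 736 CPM at 1 month. Arhgef1 was at 43.3 ± 36.5 CPM in saline libraries and 27.3 ± 27.1 CPM in escalating libraries at 24 hours, with a highest saline value of 85.2 CPM, which libraries 1582 and 1584 of the second series exceeded and library 1583 did not. For Calm2 the gap between the series means (3617 and 2228 CPM at 24 hours) was smaller than 1 SD of either other group at that time. Saline libraries at 24 hours had 20.3% to 70.3% of reads outside features, which is wider than the range in either series. The highest shares were in library 1573 (70.3%, median correlation with the other libraries 0.747) and library 1574 (51.1%, 0.682). Both stood apart and are included in the saline SDs above, and SDs without them are not given here.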

How the data were processed

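The deposited files hold raw whole-number counts of reads for each gene symbol in each library. Alignment used STAR 2.0.0e and the mm10 build and counting used HTSeq, per the submitters' processing notes. Which annotation and which strand setting the counting used is not given in the sources here, so a gene and its antisense partner may share counts. The 5 summary lines of each file, which hold reads outside features and ambiguous reads, stayed out of totals and tests.

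Counts were fitted with edgeR 4.0.16 (R 4.3.3): filterByExpr with a minimum count of 10, TMM scaling, glmQLFit with robust estimation, glmQLFTest, two-sided, with Benjamini-Hochberg adjustment over all tested genes and a threshold of 0.05. Each time was fitted alone, and the mean and the change of the series difference came from 1 fit of the 19 libraries. DESeq2 1.42.0 and limma 3.58.1 (voom) were alternatives, and the fits were tested on simulated data. In those data, 100 genes per comparison had a log2 difference of 1, and 100 had one of 2. At 1, the fits recovered 5 at 24 hours, 17 at 1 month and 38 in the mean difference. At 2, they recovered 57, 66 and 87. Genes that were not called may therefore still differ. The changed genes were drawn only from those above a minimum level, and no simulated library was made to stand apart as library 1582 did. Recovery at lower levels or with such a library was not measured. The depth was 4.97 to 15.2 M counts per library. Levels are counts per 1000000 (CPM) scaled by TMM. Library measures were compared with exact permutation tests over 84 splits at 24 hours and 252 at 1 month. Counts of libraries within a time differed by more than sampling noise (chi-square per gene 12.8 to 235 over 36 and 45 pairs), so none was counted as a repeat. Gene positions came from GENCODE release M21 (GRCm38) by symbol. No symbol started with mt-, so mitochondrially encoded genes were not analysed here.

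The members and the gene lists were chosen with earlier results of these data known. Genes were named by a rule (the smallest p-values of each comparison, up to 3 members per list, and a fixed set that includes Drd1 and Tac1; 144 genes, 132 with a single gene model). Some of them are not reported here. Members of the 80 repeated genes outside it were named after their values were seen.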

Additional observations from a re-analysis of the deposited data

Results flagged for a closer look

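Of 249 group values examined, 23 (9.24%) contained a library set apart from the others of its group by Dixon's criterion, which chance gives in about 1 in 20. Library 1596 accounted for 6 of them, and none was weighed for a cause.

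Within the first series at 24 hours, library 1576 stood apart for Atp5c1 (232 CPM) and Atp5g3 (148 CPM) and for the oligodendrocyte precursor list (mean log2 CPM 0.49). Library 1577 stood apart for Nek7 (45.1 CPM), Smtn (listed at 0 CPM) and small nucleolar RNAs (mean log2 CPM -0.82). Library 1580 stood apart for Cic (291 CPM) and ribosomal protein genes (mean log2 CPM 5.47), and library 1581 for Drd1 (357 CPM), where it was the lowest.

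Within the first series at 1 month, library 1596 was the lowest for Bcl11b (538 CPM) and Gnb1 (499.7 CPM) and the highest for Hsp90aa1 (1079 CPM). It also stood apart for the dorsal striatum list (mean log2 CPM 3.74), the unfolded protein response (3.79) and cholesterol synthesis (3.08). Library 1597 was the highest for oxidative phosphorylation genes (mean log2 CPM 6.22) and ribosomal protein genes (5.60), and library 1598 for ambiguous reads (4.93%). Within the second series at 1 month, library 1604 was the highest for Rab3a (589 CPM) and red blood cell genes (mean log2 CPM 2.58). Library 1605 stood apart for Aldh1a3 (3.42 CPM) and Desi2 (10.8 CPM), and library 1601 for replication-dependent histones (mean log2 CPM 3.48).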

How the results depend on the processing

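Zero genes were called at both times under every setting, and the other calls depended on the tool and on which libraries entered. At 24 hours 160 genes were called by DESeq2, 5 without library 1582, 5 without libraries 1582, 1604 and 1605, and 7 with the share of reads outside features as a covariate, against 0 as reported, and leaving out 1 library gave 0 to 5. At 1 month leaving out 1 library gave 0 throughout. The mean difference gave 135 by DESeq2, and 1 each with all libraries of the time, with library 1595 included, without library 1582, and without libraries 1582, 1604 and 1605; leaving out 1 library gave 0 to 223, the highest without library 1584 and 91 without library 1583. The change between times gave 21 by DESeq2 and 6 with the covariate, and 0 to 19 with 1 library left out. Leaving out libraries 1576, 1577, 1596 and 1597 gave 0 in each comparison. The cause was not tested. The covariate, counts thinned to equal depth (0 called in each comparison) and both omissions of several libraries were chosen after seeing the data.

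Replicate numbers did not pair libraries: same-numbered libraries of the series correlated at -0.035 to 0.062 in their deviations, and 2 of 7 correlated best with their own number. A fit with the replicate number as a block gave 2 called genes at 1 month (Rn45s and Lars2), 1 in the mean difference (Calm2), and 0 at 24 hours and in the change.

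Hsp90aa1 at 1 month was -0.073 with the covariate. Several list medians of the mean difference lay near 0 and changed sign often over 31 alternatives (choroid plexus under 19, striatal interneurons and X-inactivation and Y-linked genes under 14 each, D1 neurons under 13, cholesterol synthesis under 11). With library 1595 included, genes detected went to -1675.5 at 1 month and -312.8 over both times (first minus second). With 1 library left out, the first-minus-second difference at 24 hours ranged from -0.84 to 0.95 M in total counts, from -5.71 to 3.74 percentage points in reads outside features, and from -0.21 to 0.35 points in ambiguous reads. At 1 month it ranged from 4.89 to 6.06 M, from -8.01 to -4.67 points, from -6.54 to -3.88 points for Rn45s, and from -0.0080 to 0.0148 for the median correlation, and over both times from 0.319 to 0.642 points in ambiguous reads. The depth of 4.97 M counts in library 1604 limits what could be detected for rare transcripts at 1 month.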
